A study of Mus musculus with 12 samples.

Results

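Transcripts of 7 chemokine receptors that direct B cell homing, Cxcr3, Cxcr4, Cxcr5, Ccr6, Ccr7, Ccr9 and Ccr10, were followed in B cells sorted from the mouse peritoneal cavity (PerC). They were taken by name from the 56941 entries of the count table. The bulk RNAseq comprised 12 libraries in 4 groups of 3: control B2, KI B2, control memory B cells (MemB) and KI MemB. B2 were sorted as double positive for surface IgD and IgM, and MemB lacked both. KI mice carried Cd21-Cre together with a Rosa26 allele in which a lox-flanked stop precedes a truncated, gain-of-function Gpr34 linked to GFP, and controls were littermates. Cd21-Cre acts in mature B cells, so the knock-in was not on in every cell of the animal. GPR34 is a G protein-coupled receptor for lysophosphatidylserine. The study's methods give an age range for its adult mice as a whole, and the age behind each library is not given in the sources used here. Each group came from 3 mice, and libraries of B2 and MemB that carry the same number may come from the same animal.

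Chemokine receptors are receptors with 7 membrane passes that couple mainly to inhibitory G proteins, and a cell moves up a gradient of the ligand that its receptor recognises. CXCR5 draws B cells to CXCL13 in follicles and in the milky spots of the omentum, CCR7 to CCL19 and CCL21 in the T zone, and CXCR4 to CXCL12 in bone marrow and the germinal centre dark zone. CXCR3 responds to interferon-induced ligands, CCR6 to CCL20 at mucosal surfaces, CCR9 to CCL25 in the small intestine, and CCR10 to CCL27 and CCL28 in skin and mucosa.

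The upstream sequences of the receptors that passed the test between MemB and B2, Cxcr3 and Cxcr4, are shown because they are the members on which the comparison turns. Each is the 250 bases before the start of the Ensembl canonical transcript in GRCm39, the assembly also named mm39, read 5′ to 3′ on the gene's strand. Capitals in Cxcr3, at chrX:100777876-100778125 on the minus strand, mark CACACC, the reverse complement of the T-box core GGTGTG, from 220 to 215 bases before the start. Capitals in Cxcr4, at chr1:128520045-128520294 on the minus strand, mark 2 overlapping matches to the TATA box letters TATAAAA, one on each strand, between 25 and 16 bases before the start.
Cxcr3: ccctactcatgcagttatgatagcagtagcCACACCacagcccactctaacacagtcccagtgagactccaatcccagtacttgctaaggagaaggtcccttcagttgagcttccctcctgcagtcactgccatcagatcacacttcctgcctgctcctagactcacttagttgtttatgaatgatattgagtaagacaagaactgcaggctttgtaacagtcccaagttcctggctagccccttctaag
Cxcr4: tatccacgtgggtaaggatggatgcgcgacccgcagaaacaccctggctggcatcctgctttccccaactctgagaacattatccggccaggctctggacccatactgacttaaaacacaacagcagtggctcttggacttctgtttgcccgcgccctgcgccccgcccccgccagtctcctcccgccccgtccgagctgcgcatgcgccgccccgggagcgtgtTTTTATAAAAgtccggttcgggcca

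Over the same window of 21751 genes, on both strands, the T-box core was found in 16.6%, the TATA letters in 4.65%, the KLF core CCCACCC in 16.5% and the forkhead core GTAAACA in 2.72%. The T-box core also occurred upstream of Cxcr5 and Ccr9, and the KLF core upstream of Ccr7, Ccr9 and Ccr10. The forkhead letters occurred in 0 of the 7 windows, and the TATA letters in Cxcr4 alone. A match describes letters in the window and is not a binding site.

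By annotation (GENCODE M39), Cxcr3 lies at chrX:100775141-100777875, Cxcr4 at chr1:128515936-128520044 and Cxcr5 at chr9:44423083-44473174, all on the minus strand. Ccr6 lies at chr17:8454869-8475973 and Ccr9 at chr9:123507181-123613395 on the plus strand. Ccr7 lies at chr11:99035022-99045911 and Ccr10 at chr11:101063823-101066270 on the minus strand. Cxcr3 and Cxcr4 overlap no other annotated gene. The other 5 overlap at least 1, with Ccr9 overlapping 6, Slc6a20a and Lztfl1 among them. Expected counts were not whole in 12 of 12 libraries for Cxcr5 and Ccr6 and in 5 of 12 for Ccr9, so their reads were partly shared with other models.

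Libraries held 29895031 to 39732039 expected counts, of which ribosomal RNA genes took 29.3% to 38.3%. Levels are given as TMM-normalized CPM, that is counts scaled to a common library size, and n is 3 libraries per group. Gpr34 ranged from 3.44 to 6.90 CPM in control B2 and from 101 to 113 CPM in KI B2, and from 18.9 to 31.0 CPM in control MemB and 133 to 169.5 CPM in KI MemB, so both KI groups matched their labels. Ighd, the IgD heavy chain gene, was lower in MemB by a log2 fold change of -3.35 (SE 0.14, adjusted p = 5.98e-18 by edgeR). Ighm, the IgM gene, still stood at 2027 to 2706 CPM in control MemB against 299 to 570 CPM in KI MemB, although both were sorted without surface IgM. The summed B cell markers (10 genes) ranged from 3984 to 4692 CPM over all libraries. A sum of 9 mast cell and eosinophil markers stood at 77.7 CPM in KI B2 replicate 3, 45.3 CPM in control MemB replicate 1 and 243 CPM in control MemB replicate 3, against 3.58 CPM or less elsewhere. Called differences of the receptors and of the pathway genes are also given without the 2 libraries above 50 CPM and without all 3. The second fit leaves 1 control MemB library, which is assumed to vary like the other groups.

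Which receptors set MemB apart from B2 was asked first, averaged over both genotypes. Cxcr3 was higher and Cxcr4 lower in MemB, whereas Cxcr5, Ccr6, Ccr7 and Ccr9 did not pass the test and Ccr10 was too low to be tested. Calls needed both a log2 fold change beyond 1 in either direction and a p under 0.05 in the quasi-likelihood test of edgeR, adjusted over 14933 genes by the method of Benjamini and Hochberg. Of the 6 members tested, 1 was called higher and 1 lower, where 1.03% of all genes tested were called in this comparison, 0.656% higher and 0.375% lower. The median log2 fold change of the members was 0.47, against 0.02 over all genes. In bulk libraries, fewer cells expressing a receptor and less of its RNA per cell cannot be told apart. The 10 B-1 cell markers also summed higher in MemB, to 583.5 to 845 CPM against 182 to 318 CPM in B2, with Spn, Bhlhe41 and Zbtb32 called higher. The log2 fold change was above 0 for 8 of the 10 averaged over genotypes and for 6 of 10 within KI, where Cd5 averaged 0.759 CPM in MemB and 3.18 CPM in B2. Of the 10 germinal centre B cell markers, 9 had a log2 fold change above 0, with a median of 2.02 against 0.02 over all genes. Fas (3.22, adjusted p = 0.0163 by edgeR) and Neil1 (2.12, adjusted p = 0.0295) were called higher in MemB and Bcl6 (-1.82, adjusted p = 0.0448) lower. An unadjusted p under 0.05 was reached by 6 of the 10, against 12.9% of all genes. The part of either list in the receptor differences was not tested.

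Cxcr3 encodes the receptor for CXCL9, CXCL10 and CXCL11. It stood at 4.70, 10.5 and 8.57 CPM in control B2, and at 3.12, 1.63 and 3.99 CPM in KI B2. In control MemB it reached 26.8, 34.7 and 71.3 CPM, and in KI MemB 109, 152 and 98.3 CPM. Every MemB library was above every B2 library. The 3 KI MemB libraries were above the 3 of control MemB, as in 6.04% of all genes, while KI B2 sat below control B2, as in 5%. Neither difference between KI and control was called. Averaged over genotypes, Cxcr3 was 15.1-fold higher in MemB, a log2 fold change of 3.92 (SE 0.39, adjusted p = 4.48e-08 by edgeR). Over 24 alternative fits and left-out libraries the value ranged from 3.66 to 4.07, and the call held in each of them. Without the 2 libraries above 50 CPM of mast cell markers it was 3.81 (adjusted p = 6.09e-07 by edgeR), and without all 3 it was 3.89 (adjusted p = 1.18e-07). The libraries of the cell types do not overlap in 1.27% of all genes tested.

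**Figure D1:**
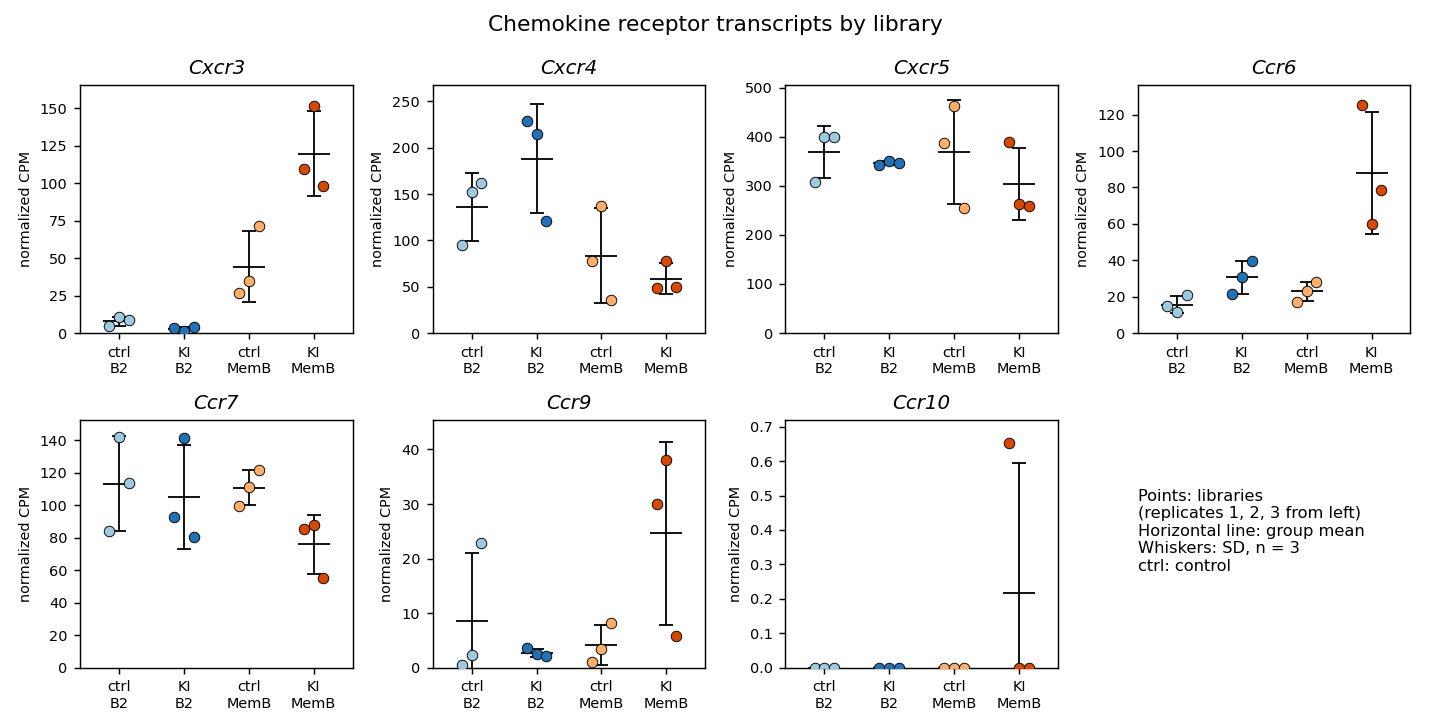
Normalized CPM (linear axes from 0) of the 7 receptors in each library, with the group mean and SD (n = 3). Cxcr3 runs from 1.63 to 10.5 CPM in the B2 libraries and from 26.8 to 152 CPM in the MemB libraries, Cxcr5 stays between 254 and 463 CPM in all, and Ccr10 has counts in 1 library.

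Within control mice, Cxcr3 was the member called, at a log2 fold change of 2.48 for MemB over B2 (SE 0.52, adjusted p = 0.0198 by edgeR). It was 1 of 6 members tested, where 0.268% of all genes were called, 0.161% higher. Its control MemB libraries were all above those of control B2, as are 6.34% of all genes. The call was lost by edgeR without control B2 replicate 1 (2.22, adjusted p = 0.153), control B2 replicate 3 (2.54, adjusted p = 0.0926), control MemB replicate 3 (1.96, adjusted p = 0.154) or KI MemB replicate 2 (2.48, adjusted p = 0.0552). It was also lost by edgeR without the robust option (2.48, adjusted p = 0.0529) and with only the compared groups (2.47, adjusted p = 0.193). Leaving out the 2 mast cell marker libraries above 50 CPM lost the call too (1.96, adjusted p = 0.157 by edgeR), and without all 3 the value was 2.13. Within KI mice, Cxcr3 was 41.1-fold higher in MemB, a log2 fold change of 5.36 (SE 0.59, adjusted p = 6.76e-07 by edgeR). There, 2 of 6 members were called, Cxcr3 higher and Cxcr4 lower, where 0.362% of all genes were called, 0.228% higher and 0.134% lower. Without the 2 libraries above 50 CPM the values in KI were 5.66 for Cxcr3 (adjusted p = 5.99e-06 by edgeR) and -1.91 for Cxcr4 (adjusted p = 0.00515), and both calls held without all 3.

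T cells and NK cells also express Cxcr3, so their markers were read beside it. The 12 T cell markers summed to 51.5 to 78.6 CPM in control B2, 33.9 to 75.5 in KI B2, 109 to 268 in control MemB and 16.1 to 68.1 in KI MemB. The 9 NK cell markers found summed to 5.64 to 30.6 CPM in B2, 59.4 to 96.6 CPM in control MemB and 3.98 to 8.25 CPM in KI MemB. Both sums were highest in control MemB, and no gene of either list was at 0 in all libraries. The part of these cells in the Cxcr3 levels was not tested.

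Cxcr4, the receptor for CXCL12, was measured at 94.6, 152 and 162 CPM in control B2 and 229, 215 and 121 CPM in KI B2. It stood at 77.2, 137 and 35.8 CPM in control MemB and 49.0, 78.2 and 49.2 CPM in KI MemB. The ranges of control B2 and control MemB overlapped, whereas each KI MemB library was below each KI B2 library. Averaged over genotypes Cxcr4 fell by 1.19 on the log2 scale in MemB (SE 0.26, adjusted p = 0.0121 by edgeR). Over 24 alternatives the log2 fold change stayed between -1.47 and -0.95, and the call held in 23. It held without the 2 libraries above 50 CPM of mast cell markers (-1.13, adjusted p = 0.0193 by edgeR) and was lost without all 3 (-0.95, adjusted p = 0.161).

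Split by genotype, the Cxcr4 difference between MemB and B2 was -0.71 in control (SE 0.37, adjusted p = 0.503 by edgeR) and -1.68 in KI (SE 0.38, adjusted p = 0.0302). The control value was -1.27 without control MemB replicate 2 and -0.34 without control MemB replicate 3, and it turned to 0.0095 without the 3 mast cell marker libraries, where replicate 2 is the control MemB library left. Libraries of KI MemB and KI B2 do not overlap, with MemB lower, in 7.54% of all genes. The call in KI was lost by edgeR without KI B2 replicate 1 (-1.52, adjusted p = 0.196), KI B2 replicate 2 (-1.57, adjusted p = 0.151), KI MemB replicate 1 (-1.56, adjusted p = 0.178) or KI MemB replicate 3 (-1.57, adjusted p = 0.142). Without the robust option it was lost too (-1.68, adjusted p = 0.121 by edgeR). The difference between the genotypes in this contrast was -0.97 (SE 0.52, adjusted p = 0.649 by edgeR), so the calls are not shown to differ between them. It ranged from -1.34 to -0.41 over left-out libraries, the last without control MemB replicate 2.

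Cxcr5, the follicular homing receptor, was high in every group and was not called in any comparison. It stood at 308, 399.8 and 400.5 CPM in control B2 and 343, 351 and 346 CPM in KI B2. In control MemB it was 388, 463 and 254 CPM, and in KI MemB 389, 264 and 259.5 CPM. The B2 range lay inside the MemB range, and the log2 fold change of MemB over B2 was -0.10 (SE 0.16, adjusted p = 0.877 by edgeR).

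Ccr7, the receptor that guides lymphocytes to the T zone, was also not called between the cell types. Its levels were 83.9, 142 and 114 CPM in control B2 and 93.1, 141 and 80.8 CPM in KI B2. They were 99.9, 111 and 122 CPM in control MemB and 85.2, 87.7 and 55.1 CPM in KI MemB. The log2 fold change of MemB over B2 was -0.25 (SE 0.23, adjusted p = 0.720 by edgeR). The 3 KI MemB libraries were below the 3 control MemB libraries, as in 6.11% of all genes, and this difference was not called.

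Ccr6, the CCL20 receptor, was highest in KI MemB. It stood at 14.7, 11.4 and 20.8 CPM in control B2, 21.7, 30.8 and 39.7 CPM in KI B2, and 17.3, 23.3 and 28.0 CPM in control MemB. KI MemB reached 125, 60.05 and 78.5 CPM, above every other library, as in 1.23% of all genes. For MemB over B2 the log2 fold change was 1.03 averaged over genotypes (SE 0.35, adjusted p = 0.153), 0.55 in control (SE 0.49, adjusted p = 0.766) and 1.52 in KI (SE 0.50, adjusted p = 0.244), all by edgeR and none called. DESeq2, as the alternative, called it averaged over genotypes (1.03, adjusted p = 0.0202) and in KI (1.52, adjusted p = 0.0202).

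Ccr9, the receptor of gut-homing lymphocytes, was low and uneven. It stood at 0.439, 2.40 and 22.8 CPM in control B2, where replicate 3 was far above the others, and at 3.54, 2.44 and 2.21 CPM in KI B2. Control MemB had 1.03, 3.43 and 8.18 CPM, and KI MemB had 29.96, 38.2 and 5.86 CPM. The KI MemB libraries were above the KI B2 libraries, as are 7.31% of all genes, but overlapped control MemB. In KI the log2 fold change of MemB over B2 was 3.17 (SE 1.18, adjusted p = 0.348 by edgeR), and in control it was -1.02 (SE 1.10, adjusted p = 0.819). Without control B2 replicate 3 the control value turned to 1.57 (adjusted p = 0.736 by edgeR). Plasmacytoid dendritic cells also express Ccr9, and the 9 other dendritic cell markers summed to 68.5 to 88.8 CPM in KI MemB, 19.3 to 77.6 in control MemB, 32.9 to 145 in KI B2 and 8.89 to 69.5 in control B2. Flt3, Zbtb46 and Batf3 carried most of the sum in KI MemB, while the plasmacytoid marker Siglech was at 0.154 CPM or less there and highest at 10.97 CPM, in a KI B2 library. Jchain, the joining chain of secreted IgA and IgM and a plasma cell marker, stood at 72.6 to 197.5 CPM in KI MemB against 5.61 to 18.1 CPM in control MemB and 1.63 to 11.4 CPM in B2. For KI over control in MemB its log2 fold change was 3.80 (SE 0.68, adjusted p = 0.00524 by edgeR), the 1 called of the 10 plasma cell markers. Whether dendritic or plasma cells had a part in the Ccr9 levels was not tested.

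Ccr10, a receptor of IgA plasma cells, had 0 counts in 11 of 12 libraries, which allows up to 0.0739 to 0.101 CPM (3 counts, counting error only). KI MemB replicate 1 had 19 counts, or 0.652 CPM, in the group in which Jchain was highest. With counts in 1 library it was left out by the filter on low counts, and no fold change is given.

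**Figure D2:**
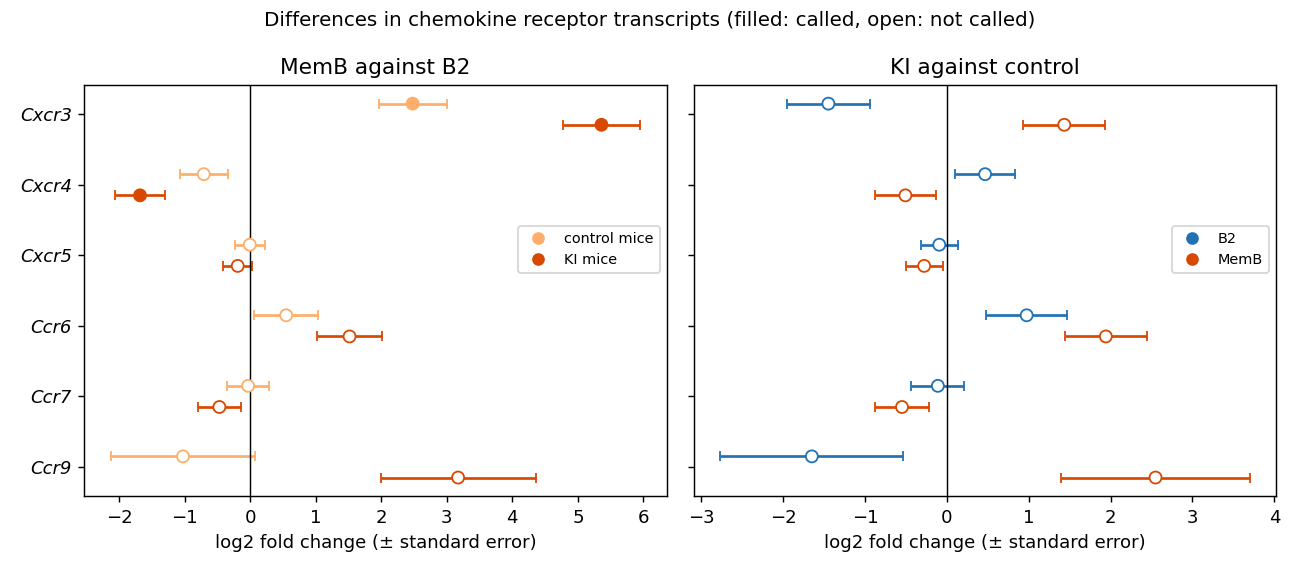
Log2 fold changes (points) with standard errors (whiskers) of the 6 tested receptors, for MemB against B2 within control and KI mice (left) and for KI against control within B2 and MemB (right). Filled points are called and open points are not; the filled points are Cxcr3 at 2.48 and 5.36 and Cxcr4 at -1.68, all on the left.

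KI was compared with control within each cell type, to ask which receptors differ with the knock-in. No member was called by edgeR. The KI and control libraries of Cxcr3 and Ccr6 were apart in both cell types. Of all genes, 6.04% were apart with KI higher in MemB, 5.24% with KI higher in B2 and 5% with KI lower in B2. In MemB, 0 of 6 members were called by edgeR, where 0.281% of all genes tested were. An unadjusted p under 0.05 was reached by 3 of the 6, Cxcr3, Ccr6 and Ccr9, against 11.1% of all genes, and by DESeq2 1 member, Ccr6, was called. The contrasts of KI with control in MemB and of MemB with B2 in KI share the KI MemB libraries, so their values are not independent.

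In MemB, Ccr6 had a log2 fold change of 1.94 for KI over control (SE 0.50, adjusted p = 0.108 by edgeR), with DESeq2 giving 1.95 (adjusted p = 0.00076). Cxcr3 had 1.43 (SE 0.50, adjusted p = 0.319 by edgeR). Both were higher in 3 of 3 KI libraries than in any control library, a pattern shown by 6.04% of all genes. Ccr9 had 2.55 (SE 1.15, adjusted p = 0.400 by edgeR) with overlapping libraries. Ccr7 had -0.55 (SE 0.32, adjusted p = 0.560 by edgeR) and was lower in each KI library, as are 6.11% of all genes. Cxcr4 had -0.51 (SE 0.37, adjusted p = 0.662 by edgeR) and Cxcr5 -0.28 (SE 0.23, adjusted p = 0.704), both with overlapping libraries. T cells carry Ccr7 and Ccr6 too, and the T cell sum given above was lower in KI MemB. Germinal centre B cell markers summed to 406 to 573 CPM in KI MemB against 223 to 326 CPM in control MemB. The proliferation gene Mki67 makes up most of that sum, at 286 to 490 CPM against 158 to 241 CPM. By edgeR, 0 of the 10 markers were called, with 2 at an unadjusted p under 0.05 (11.1% of all genes). B-1 cell markers summed to 583.5 to 671 CPM in KI MemB against 765 to 845 CPM in control MemB. Of these, 0 of 10 were called by edgeR and 4 had an unadjusted p under 0.05, against 11.1% of all genes. Macrophage markers summed to 17.6 to 25.7 CPM against 46.1 to 77.6 CPM. The part of these cell types in these values was not tested. Without the 2 libraries above 50 CPM of mast cell markers, Ccr6 was at 2.11 (adjusted p = 0.220 by edgeR) and Cxcr3 at 1.96 (adjusted p = 0.233), and without all 3 at 1.93 (adjusted p = 0.509) and 1.80 (adjusted p = 0.528).

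In B2, 0 of 6 members were called by edgeR and by DESeq2, where 0.0067% of all genes were called by edgeR, Gpr34 being the gene (log2 fold change 4.42, SE 0.42, adjusted p = 1.28e-07). Cxcr3 had a log2 fold change of -1.45 for KI over control (SE 0.51, adjusted p = 0.837 by edgeR), and was the 1 member with an unadjusted p under 0.05, against 5.73% of all genes. Its 3 KI libraries were below the 3 control libraries, as in 5% of all genes. Ccr6 had 0.98 (SE 0.49, adjusted p = 0.849 by edgeR), with the KI libraries above the control libraries, as in 5.24% of all genes. Cxcr4, Cxcr5 and Ccr7 had 0.47 (SE 0.37), -0.09 (SE 0.23) and -0.11 (SE 0.32). Ccr9 had -1.65 (SE 1.12, adjusted p = 0.914 by edgeR), which became 0.95 without control B2 replicate 3.

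Whether the KI effect differed between the cell types was tested as an interaction. None of the 6 members was called by edgeR, where 0.067% of all genes were, with 2 members, Cxcr3 and Ccr9, at an unadjusted p under 0.05 against 8.5% of all genes. For Cxcr3 the KI effect in MemB exceeded that in B2 by 2.88 (SE 0.71, adjusted p = 0.184 by edgeR). DESeq2 called it (2.89, adjusted p = 0.00577), as did edgeR with no filter on low counts (2.86, adjusted p = 0.0352). Without the 2 libraries above 50 CPM of mast cell markers it was 3.70 (adjusted p = 0.0838 by edgeR), and without all 3 it was 3.53 (adjusted p = 0.271). For Ccr9 the difference was 4.20 (SE 1.60, adjusted p = 0.448 by edgeR), falling to 1.60 without control B2 replicate 3, and for Ccr6 it was 0.97 (SE 0.69, adjusted p = 0.776).

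Levels of different receptors were then compared per kb of exon. Cxcr5 had the highest mean in all 4 groups, although in KI B2 Cxcr4 overlapped it and took rank 1 without replicate 3, and Cxcr3 stood at rank 5 in both B2 groups, rank 4 in control MemB and rank 2 in KI MemB. In control B2, Cxcr5 stood at 110.9 CPM per kb, Cxcr4 at 74.7, Ccr7 at 57.1, Ccr6 at 6.38, Cxcr3 at 4.58 and Ccr9 at 0.809. The libraries of Cxcr4 and Ccr7, and of Ccr6 and Cxcr3, overlapped, so the order within these pairs is not set. In KI B2 the order was the same, from Cxcr5 at 104 and Cxcr4 at 103 to Cxcr3 at 1.68 and Ccr9 at 0.258 CPM per kb. There Cxcr5 overlapped Cxcr4, and Cxcr4 overlapped Ccr7.

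In control MemB, Cxcr5 at 110.6 CPM per kb was followed by Ccr7 at 55.9, Cxcr4 at 45.8, Cxcr3 at 25.6, Ccr6 at 9.34 and Ccr9 at 0.398. Ccr7 overlapped Cxcr4, and Cxcr4 overlapped Cxcr3. In KI MemB, Cxcr5 at 91.3 overlapped Cxcr3 at 69.2 CPM per kb, and Ccr7 at 38.3, Ccr6 at 35.9 and Cxcr4 at 32.3 overlapped one another. Ccr9 at 2.33 CPM per kb remained below the others and above Ccr10. Ccr9 has the longest exon union, 10583 bases, which lowers its value per kb.

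**Figure D3:**
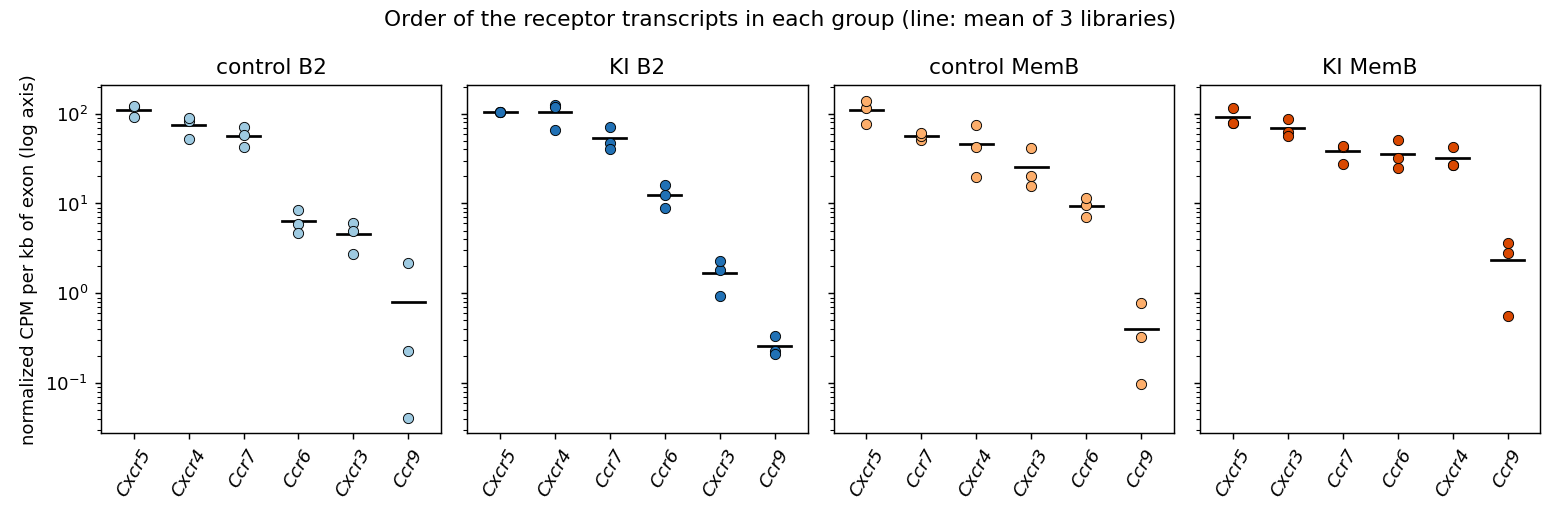
CPM per kb of exon (log axis) of 6 receptors in each group, ordered by the mean of 3 libraries (line; points are libraries, and Ccr10, at 0 in 11 libraries, is not drawn). Cxcr3 stands at rank 5 in both B2 groups, rank 4 in control MemB and rank 2 in KI MemB, where it overlaps Cxcr5.

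The wider pathway was read through lists chosen for their known tie to these receptors. Of 16 other chemokine receptors, 8 were tested and 0 were called for MemB against B2 by edgeR, with 3 at an unadjusted p under 0.05, as are 12.9% of all genes. Ackr4, a scavenger of CCL19, CCL21 and CCL25, had a log2 fold change of -3.60 (SE 1.30, adjusted p = 0.185 by edgeR), at 9.83, 0.304 and 11.2 CPM in control B2 and at 0.887 CPM or less in the other groups. Ackr2, a scavenger of inflammatory CC chemokines, had 1.56 (SE 0.62, adjusted p = 0.247 by edgeR). Ccr8, Cxcr1 and Ackr1 had 0 counts in all libraries. Of 11 ligands of the members, 7 had 0 counts throughout, Cxcl12, Cxcl13 and Ccl20 among them, and the 2 tested, Ccl25 (-0.12, SE 0.86) and Ccl27a (0.81, SE 0.84), were not called.

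Of 17 genes of receptor signalling, all tested, 1 was called higher in MemB and 0 lower (0.656% and 0.375% of all genes), 7 had an unadjusted p under 0.05 (12.9% of all genes), and the median log2 fold change was 0.35 (0.02 over all genes). It was Pik3r5, a regulatory subunit of the phosphoinositide 3-kinase that G proteins activate. Pik3r5 ranged from 57.3 to 109.7 CPM in B2 and from 132 to 331 CPM in MemB, with no overlap, as in 1.27% of all genes, and its log2 fold change was 1.56 (SE 0.20, adjusted p = 1.27e-05 by edgeR). It was 1.66 without the 2 libraries above 50 CPM of mast cell markers (adjusted p = 5.29e-05 by edgeR) and 1.54 without all 3 (adjusted p = 0.000506). Of 13 genes of receptor desensitisation tested, 0 were called higher and 1 lower (0.656% and 0.375% of all genes), with 2 at an unadjusted p under 0.05 (12.9% of all genes). The gene was Arrb1, which encodes beta-arrestin 1. Arrb1 ranged from 28.6 to 95.3 CPM in B2 and from 9.22 to 24.2 CPM in MemB, and fell by 1.72 on the log2 scale (SE 0.41, adjusted p = 0.0207 by edgeR). The Arrb1 call was lost by edgeR without control B2 replicate 3 (-1.36, adjusted p = 0.139), KI B2 replicate 2 (-1.64, adjusted p = 0.0745), KI B2 replicate 3 (-1.63, adjusted p = 0.0693) or KI MemB replicate 2 (-1.59, adjusted p = 0.0549), and without the 2 libraries above 50 CPM of mast cell markers (-1.54, adjusted p = 0.137) or all 3 (-1.81, adjusted p = 0.181).

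Of 15 homing adhesion molecules, all tested, 1 was called higher and 0 lower in MemB by edgeR (0.656% and 0.375% of all genes), with 6 at an unadjusted p under 0.05 (12.9% of all genes) and a median log2 fold change of 0.51 (0.02 over all genes). Itga4, the alpha 4 integrin subunit, ranged from 844 to 1210 CPM in B2 and from 1715 to 2552 CPM in MemB (log2 fold change 1.14, SE 0.10, adjusted p = 6.42e-09 by edgeR). It was 1.09 without the 2 libraries above 50 CPM of mast cell markers (adjusted p = 2.87e-07 by edgeR) and 1.05 without all 3 (adjusted p = 1.7e-06). Within KI, 2 of the 15 were called higher (0.228% of all genes), Itga4 and the hyaluronan receptor Cd44 (1.06, SE 0.21, adjusted p = 0.00783 by edgeR). Within control 1 of the 15 was called higher (0.161% of all genes), Itgb1, the beta 1 integrin subunit (1.43, SE 0.30, adjusted p = 0.0194 by edgeR). The Cd44 call was lost by edgeR without KI B2 replicate 2 (0.93, adjusted p = 0.111) or replicate 3 (0.99, adjusted p = 0.0792), and without the 2 libraries above 50 CPM (1.00, adjusted p = 0.0839) or all 3 (adjusted p = 0.0682). The Itgb1 call was lost by edgeR without control B2 replicate 1, 2 or 3 or control MemB replicate 1 or 2 (adjusted p from 0.0534 to 0.120), kept without the 2 libraries above 50 CPM (1.59, adjusted p = 0.0284) and lost without all 3 (1.46, adjusted p = 0.209). The T cell and NK cell sums were highest in control MemB, both cell types express Itgb1, and their part was not tested.

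For KI against control in MemB, 0 of the 15 adhesion molecules were called higher and 1 lower by edgeR, where 0.281% of all genes were called in either direction, with 2 at an unadjusted p under 0.05, or about the 11.1% of all genes. Itgb1 fell by 1.69 on the log2 scale (SE 0.30, adjusted p = 0.00524 by edgeR), and the call was lost without KI MemB replicate 1 (-1.36, adjusted p = 0.0539) kept without the 2 libraries above 50 CPM (-1.85, adjusted p = 0.00582) and lost without all 3 (-1.71, adjusted p = 0.0965). Itgb1 stood at 404, 337 and 250 CPM in control MemB and 52.0, 129 and 126 CPM in KI MemB, and all libraries of the KI group were below those of the control group, as in 6.11% of all genes. The T cell and NK cell sums, given above, were lower in KI MemB, and their part in this difference was not tested either.

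Of 13 transcription factors tied to the receptors that were tested, 1 was called higher in MemB and 0 lower (0.656% and 0.375% of all genes), with 6 at an unadjusted p under 0.05 (12.9% of all genes). It was Tbx21, which encodes T-bet, a T-box factor known to act on Cxcr3 in lymphocytes. Tbx21 stood at 1.05, 0.338 and 2.62 CPM in control B2, 0.290, 0.197 and 0.154 CPM in KI B2, 6.70, 4.28 and 12.8 CPM in control MemB, and 10.6, 47.2 and 6.35 CPM in KI MemB. All MemB libraries were above all B2 libraries, where 1.27% of all genes do not overlap, and the log2 fold change was 4.60 (SE 0.89, adjusted p = 0.00310 by edgeR). It was 4.24 without the 2 libraries above 50 CPM of mast cell markers (adjusted p = 0.0358 by edgeR), and the call was lost without all 3 (4.06, adjusted p = 0.0556) or without KI MemB replicate 2 (3.93, adjusted p = 0.0674). T cells and NK cells also express Tbx21, and their sums, given above, were highest in control MemB. Their part in the Tbx21 levels was not tested. Within control the log2 fold change was 2.57 (SE 1.14, adjusted p = 0.434 by edgeR), not called, and within KI it was 6.63 (SE 1.38, adjusted p = 0.0146). The call in KI was lost by edgeR without KI B2 replicate 1, 2 or 3 or KI MemB replicate 2 (adjusted p from 0.0895 to 0.237), and without the 2 libraries above 50 CPM (6.44, adjusted p = 0.133) or all 3 (adjusted p = 0.108).

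**Figure D4:**
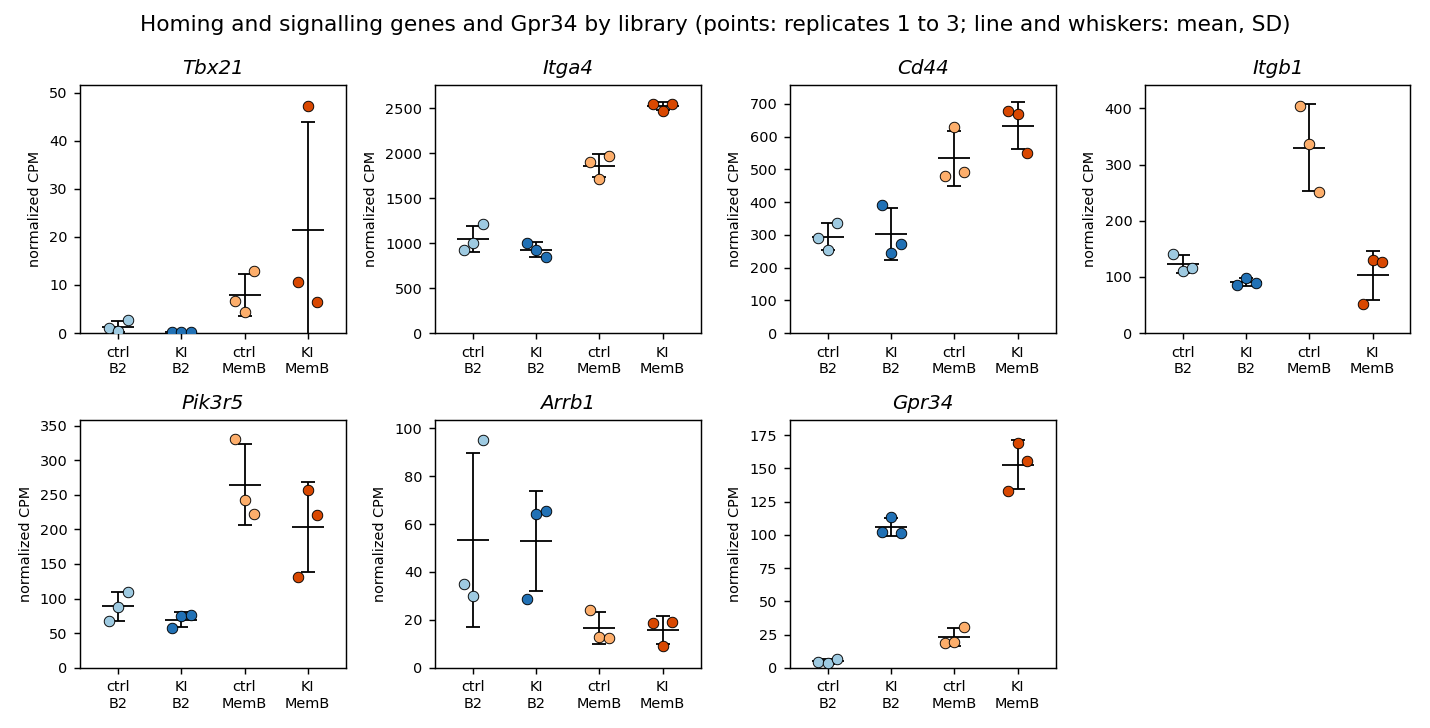
Normalized CPM (linear axes from 0) of 6 genes called in a comparison and of Gpr34 in each library, with the group mean and SD (n = 3). Itga4 is at 1715 CPM or more in the MemB libraries and at 1210 CPM or less in B2, and Itgb1 is highest in control MemB (250 to 404 CPM).

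Genes whose level across the 12 libraries was most like that of each receptor were ranked by Pearson's r of log2 CPM, over genes with a mean of at least 5 CPM, as a description. For Cxcr3 they were Itga4 (r = 0.958), Parm1 (r = 0.956) and S100a10 (r = 0.941), each also called higher in MemB. For Cxcr4 they were Narf (r = 0.905), Cnr2 (r = 0.879) and Ikzf1 (r = 0.872), of which Cnr2, the cannabinoid receptor CB2, was called lower in MemB (-1.65, adjusted p = 0.00687 by edgeR). The points share their cell type and genotype, so an r follows the group means as well as the spread within groups.

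The other 4 tested receptors had no called difference in any comparison by edgeR. Cxcr5 was most like Dtx3l (r = 0.890), Heatr5b (r = 0.877) and Vps50 (r = 0.853), and Ccr7 most like Ptpra (r = 0.897), Spast (r = 0.879) and Dipk2a (r = 0.857). Ccr6 was most like Impa2 (r = 0.888), Gsn (r = 0.887) and the cell cycle inhibitor gene Cdkn1a (r = 0.879), and Ccr9 most like Lair1 (r = 0.889), Ep300 (r = 0.887) and Tbpl1 (r = 0.885).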

How the data were processed

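Bulk RNAseq libraries (12, in 4 groups of 3) were made with an amplifying kit from RNA of sorted PerC B cells, and reads were 50-bp paired ends; whether counting used strand is not given in the sources used here. Per the submitters' notes and the study's methods, the authors ran FastQC 0.12.1, trimmed with cutadapt 4.5, aligned to mm39 with STAR 2.7.11a and estimated counts with RSEM 1.3.3. The deposited values are RSEM expected counts per gene, not normalized, and 32.2% of values above 0 were not whole. RSEM divides reads among overlapping and similar genes. Columns were assigned to libraries through their names.

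Expected counts were rounded. The 813 entries without a symbol (0.605% to 0.689% of counts) were left out of library sizes and tests. Genes were kept by filterByExpr (minimum count 10), scaled by TMM and fitted with edgeR 4.0.16 in R 4.3.3 (glmQLFit with the robust option, glmQLFTest), as 1 model of 4 group means over all 12 libraries, without a replicate block. The fit was also run on simulated counts, where it missed part of the genes set to change, so a gene not called may still differ. The standard error is the size of the log2 fold change over the square root of F. Called means an adjusted p below 0.05 (Benjamini-Hochberg, 14933 genes) and a log2 fold change beyond 1. Levels per kb used the union of exons in GENCODE M39. The p-values rest on the spread of libraries within groups, pooled over the 4 groups and partly shared across genes, not on 1 group's 3 mice alone. Depth was 29895031 to 39732039 counts, and floors cover counting error only, since reads were amplified and carried no molecular identifiers.

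Alternatives were other size factors, no filter, DESeq2 1.42.0, no robust option, fits of the compared groups alone, blocks, each library left out, and the removal of immunoglobulin and ribosomal RNA genes. Leaving out the 2 libraries above 50 CPM of mast cell markers, or the 3 above 10 CPM, was chosen after seeing the data. The members and gene lists were chosen with earlier results of these data known. Named genes were the 7 members, the called genes of the 6 pathway lists (in a list with none, the 2 with the smallest p), the 3 genes most like each member in log2 CPM (prior count 2), Gpr34, Ighd and Ighm, and marker sums of other cell types. The plasma cell markers summed to 370.5 to 589 CPM in B2 and 565 to 798 CPM in MemB, and the macrophage markers, with Fcgr1, Gata6, Marco, Mertk and C1qa at 0, to 6.74 to 37.7 and 17.6 to 77.6 CPM. An adhesion gene is not reported here and is outside the counts of its list.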

Additional observations from a re-analysis of the deposited data

Results flagged for a closer look

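The KI and control libraries of Cxcr3 were apart in opposite directions in the cell types, although neither difference was called. In MemB all 3 KI libraries were above all 3 control libraries (log2 fold change 1.43, adjusted p = 0.319 by edgeR), as in 6.04% of all genes, and in B2 all 3 KI libraries were below (-1.45, adjusted p = 0.837), as in 5% of all genes. The difference between the effects was 2.88 (SE 0.71, adjusted p = 0.184 by edgeR), which did not pass the threshold. Over the alternatives tried it was called by DESeq2 (adjusted p = 0.00577) and by edgeR without the filter on low counts (adjusted p = 0.0352).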

How the results depend on the processing

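Of 870 recomputed values of the members, 829 kept their direction and their side of the threshold, 14 lost a call, 5 gained one and 22 reversed. For MemB against B2 averaged over genotypes, Cxcr3 was called under every alternative tried, and Cxcr4 under all but the one without the 3 libraries above 10 CPM of mast cell markers (adjusted p = 0.161 by edgeR), which took members called to 1. Below, the 2 libraries are those above 50 CPM and the 3 those above 10 CPM of these markers. The causes of the changes below were not tested, beyond the fewer libraries in a fit that leaves some out.

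Genes called for MemB against B2 came to 237 with no filter, 582 with DESeq2 and 88 without the 3 libraries (main 154). In control they were 96, 392, 24 without the robust option, 25 without the 2 libraries and 15 without the 3 (main 40), and in KI 104, 388 and 31 without the 2 (main 54). For KI against control in MemB they were 89 with no filter, 471 with DESeq2, 21 without the robust option, 12 with only the compared groups and 12 without the 3 libraries (main 42), and in B2 8, 41 and, without the 2 or the 3 libraries, 2 and 3 (main 1). For the interaction they were 6 with upper-quartile factors, 41 with no filter, 203 with DESeq2, 4 without the robust option, 3 without immunoglobulin and ribosomal RNA genes and 5 without the 3 libraries (main 10). Leaving out 1 library at a time gave 104 to 157, 19 to 43, 27 to 61, 15 to 49, 1 to 2 and 5 to 10 genes, in this order.

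Members called in control fell to 0 without the robust option (Cxcr3, adjusted p = 0.0529 by edgeR), with only the compared groups (0.193) and without the 2 or the 3 libraries, and ranged from 0 to 1 over left-out libraries. In KI the count was 1 without the robust option, where Cxcr4 had an adjusted p of 0.121 by edgeR, and 1 to 2 over left-out libraries. With DESeq2, which added Ccr6, it was 3 both in KI and averaged over genotypes. It was 1 with DESeq2 for KI against control in MemB, and 1 with DESeq2 and 1 with no filter for the interaction.

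The values that reversed were small or those of Ccr9. For MemB against B2, Cxcr5 averaged over genotypes turned to 0.0078 and 0.0699 without the 2 and the 3 libraries and ranged from -0.2023 to 0.0087 over left-out libraries. In control, Cxcr5 turned to 0.0016 with no filter and to 0.2043 and 0.3233 without the 2 and the 3 libraries. Cxcr4 in control turned to 0.0095 without the 3 libraries. Over left-out libraries in control, Cxcr5 ranged from -0.2026 to 0.2053, Ccr7 from -0.1934 to 0.1647 and Ccr9 from -1.94 to 1.5728, the last without control B2 replicate 3. For KI against control, Cxcr4 in MemB ranged from -0.8679 to 0.0569. In B2, Ccr7 turned to 0.0486 and 0.0535 without the 2 and the 3 libraries and ranged from -0.3841 to 0.086, and Ccr9 ranged from -2.20 to 0.9476, the last again without control B2 replicate 3. The interaction of Cxcr5 ranged from -0.3958 to 0.0137.

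The deviations of same-numbered B2 and MemB libraries within a genotype correlated at 0.0017 to 0.0334, and those of all same-numbered pairs at -0.026 to 0.0334. These values gave no clear sign of pairing by number, which leaves unknown whether B2 and MemB of a number came from the same animal. With a replicate block the interaction had 6 called genes and Ccr7 in control turned to 0.0019; with a mouse block, a replicate block within genotype, Ccr9 in control turned to 0.0866. With a replicate block Cxcr3 averaged over genotypes was 3.91 and Cxcr4 -1.28, and no member's call changed.

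With mean coding transcript length, Cxcr4 took rank 2 and Ccr7 rank 3 in control MemB, and Ccr6 rank 3, Cxcr4 rank 4 and Ccr7 rank 5 in KI MemB. Over left-out libraries, Cxcr4 and Cxcr5 exchanged ranks 1 and 2 in KI B2 without replicate 3, Cxcr4 and Ccr7 exchanged ranks 2 and 3 in control MemB without replicate 3, and ranks 3 to 5 of Ccr7, Ccr6 and Cxcr4 in KI MemB moved without replicate 1 or 2. Depth limits Ccr10, and the spread between libraries limits Ccr9.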
